A study of Mus musculus with 10 samples.

Results

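The 7 genes described here, Nppa, Bmp10, Myl4, Myl7, Sln, Nr2f2 and Dkk3, are expressed more in the atria than in the ventricles of the adult mouse heart. They were taken by name from the 19938 genes of the arrays, and each had 1 probe set annotated to it alone. They were chosen by the difference between knockdown and wild-type hearts on these same arrays, so the heart values are given as a description, with no test. RNA of male C57BL/6 mice aged 3 months was hybridised to Affymetrix arrays. The 4 groups were ventricular cardiomyocytes of wild-type mice (WT, 3 arrays), ventricular cardiomyocytes of mice with a knockdown of VAChT (KD, 3 arrays), whole hearts of WT mice (2 arrays) and whole hearts of VAChT KD mice (2 arrays). VAChT, the vesicular transporter of acetylcholine, fills the vesicles of cholinergic nerve endings. The series title calls the knockdown animals VAChT KDHOM. No animal was treated, and the RNA of 2 samples was pooled for an array. Whether different arrays stand for different animals is not stated otherwise, so a p-value measures the spread between arrays, which may be partly technical. How much atrium each heart sample kept, and how cells of the atria were kept out of the ventricular preparations, is not given in the sources used here.

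Atrial and ventricular muscle use different sets of proteins for the same tasks. Atrial myocytes store and release atrial natriuretic peptide, made from Nppa, which acts on the kidney and on vessels through the receptor encoded by Npr1. They build their myosin with the light chains Myl4 (the essential chain) and Myl7 (the regulatory chain), where ventricular myocytes use Myl3 and Myl2. Their calcium pump is held back by sarcolipin, the product of Sln, where ventricular myocytes rely on phospholamban (Pln). Bmp10 is a growth factor of the BMP family, made in the adult mouse mainly by right atrial myocytes, which signals to endothelium through Acvrl1 and Bmpr2. Nr2f2 is a nuclear receptor that sets atrial identity in myocytes and is also active in venous and lymphatic endothelium. Dkk3 is a secreted protein of the Dickkopf family.

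RefSeq sequence upstream of an annotated start (GRCm38.p6) was found for 5 of the 7 genes. The 250 bases before the start are printed for the 3 genes in which a searched motif was found. These genes shared low values in a heart array described further on, as did Myl4, whose window held no match. Capitals mark every match, on either strand, to AGATAA or TGATAA (sites of GATA factors), TNAAGTG (NKX2-5), AGGTGT (T-box factors), AGGTCA (nuclear receptor half-sites), TATAAA, the MEF2 site or the CArG box of SRF.
Nppa, chr4:148000472-148000721, plus strand: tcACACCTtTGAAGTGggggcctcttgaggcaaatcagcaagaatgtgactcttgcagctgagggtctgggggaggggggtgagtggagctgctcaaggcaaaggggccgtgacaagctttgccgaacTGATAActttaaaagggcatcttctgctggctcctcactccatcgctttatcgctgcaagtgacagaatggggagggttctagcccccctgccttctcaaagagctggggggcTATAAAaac
Bmp10, chr6:87428744-87428993, plus strand: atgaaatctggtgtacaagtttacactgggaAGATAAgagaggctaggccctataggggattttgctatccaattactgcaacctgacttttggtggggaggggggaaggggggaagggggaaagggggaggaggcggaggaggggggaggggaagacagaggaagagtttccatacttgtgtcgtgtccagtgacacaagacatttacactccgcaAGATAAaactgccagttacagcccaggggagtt
Myl7, chr11:5898783-5899032, minus strand: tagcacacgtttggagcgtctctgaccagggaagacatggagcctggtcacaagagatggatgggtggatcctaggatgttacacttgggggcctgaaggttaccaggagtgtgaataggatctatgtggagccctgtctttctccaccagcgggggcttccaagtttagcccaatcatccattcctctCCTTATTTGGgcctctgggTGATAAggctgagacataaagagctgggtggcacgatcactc
Of the 5 windows searched, the 3 printed held AGATAA or TGATAA, which 16.6% of the 32851 upstream windows of this length held. The 3 were printed because a motif was found in them, so this is no measure of enrichment. The Bmp10 window held AGATAA starting 219 and 33 bases before the annotated start, the Nppa window TGATAA at 122 bases and the Myl7 window TGATAA at 42 bases. The Nppa window also held AGGTGT at 248 bases (11.8% of windows), TNAAGTG at 241 bases (10.1%) and TATAAA at 9 bases (12.4%). The CArG box stood in the Myl7 window at 61 bases, and in 1.47% of all windows. AGGTCA (14% of windows) and the MEF2 site (2.92%) had no match in the 5 windows, and the windows of Myl4 and Nr2f2 held none of the 8 motifs. The Myl4 window, chr11:104550413-104550662 on the plus strand, lay inside the annotated gene, whose first base is at 104546017. The lack of a match there does not concern the bases before that position. No matches overlapped one another. A match is a stretch of letters and was not tested as a binding site.

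The label of the genes was first set against the 2 kinds of sample. The deposited values are log2 intensities, and the array medians over genes lay at 6.19 to 6.27 in cardiomyocytes and at 7.54 to 7.59 in hearts, so the 2 kinds were apparently normalized separately; they were also labelled by different manuals. The targeted gene, Slc18a3, which encodes VAChT, was not lower in KD: it spanned 6.04 to 6.37 in WT cells and 6.21 to 6.52 in KD cells, 7.34 to 7.72 in WT hearts and 7.31 to 7.84 in KD hearts. The position of its probes relative to the altered part of the gene is not given here, so these values do not check the genotype labels. Levels were therefore set across them by the percentile of a gene among the 19938 genes of the same array. Bmp10 stood at percentile 11.8 to 23.6 in the 6 cardiomyocyte arrays and at 63.4 to 89.4 in the 4 heart arrays. Nr2f2 stood at 36.6 to 49.8 in cardiomyocytes and at 76.8 to 82.3 in hearts, and Dkk3 at 35.5 to 48.1 and at 77 to 86.9. Nppa was bright in both, at 95.1 to 98.4 and at 98.8 to 99.8. In these 4 genes every heart array lay above every cardiomyocyte array, as it did in 28.1% of all genes. The other 3 overlapped: Myl4 spanned percentiles 87.5 to 98.9 in cardiomyocytes and 94.4 to 98.2 in hearts, Myl7 52 to 94.2 and 89.8 to 97.7, and Sln 34.4 to 54.2 and 29 to 58.5. The median difference of the 7 genes, WT cardiomyocytes minus WT hearts, was -2.56 on the deposited log2 scale, -2.03 after quantile normalization of all arrays and -1.23 after centring on the array medians, where Myl4 turned to 0.40.

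**Figure D1:**
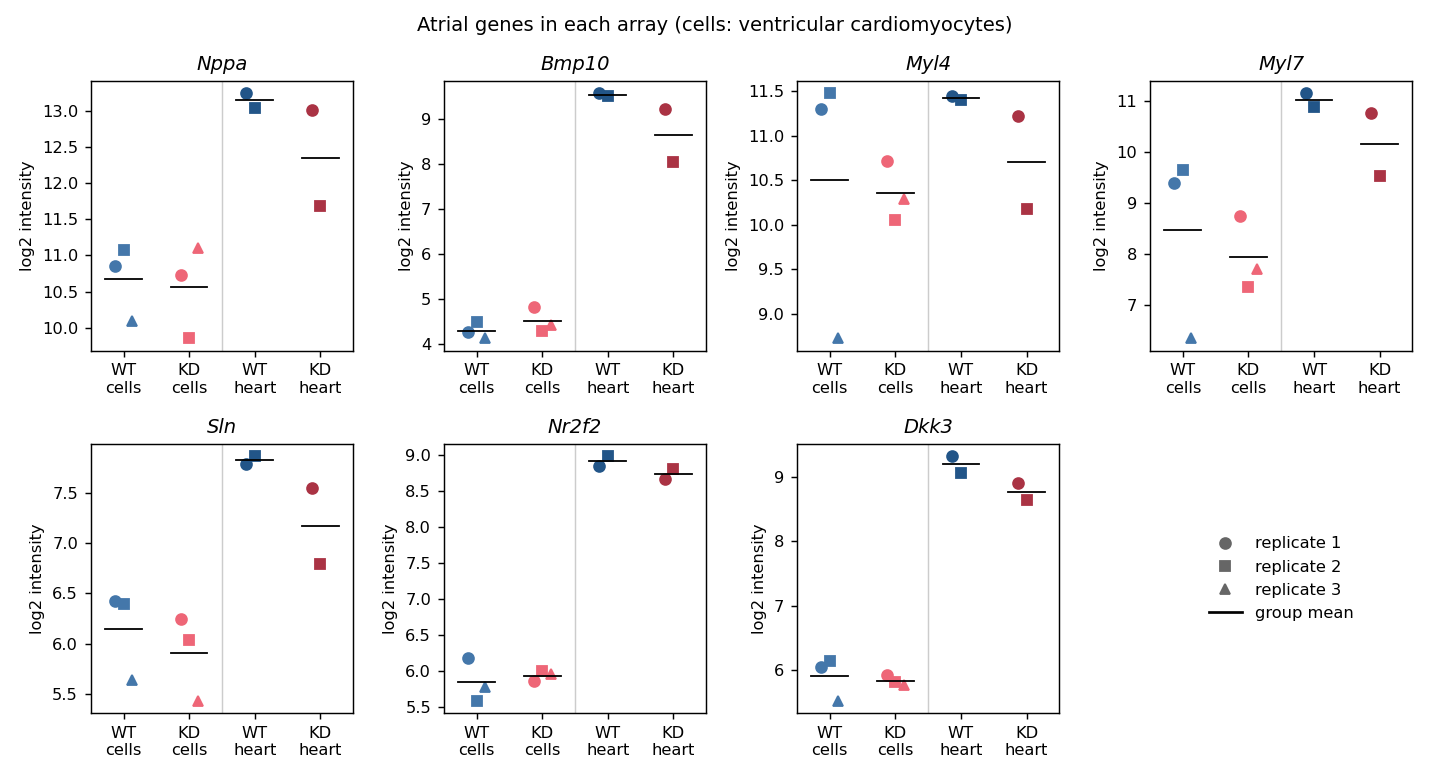
Log2 intensity of each of the 7 atrial genes in all 10 arrays, with 1 panel and 1 scale per gene; symbols mark the replicate number and black lines the group mean. KD heart replicate 2 is the lowest heart array in 6 panels, and WT cardiomyocyte replicate 3 is far below the other WT cells for Myl4 and Myl7.

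In whole hearts all 7 genes had a lower mean in KD than in WT, and in all 7 the higher KD array was under the lower WT array. Of all genes 47.5% had a lower mean and 15.4% showed that order. The order was not particular to the atrial genes. A list of 7 fibroblast genes showed it in 7 of 7, and a list of 7 ventricular genes in 3. Most of the difference lay in KD heart replicate 2, which was the lowest of the 4 arrays in 6 of the 7 genes (in 23.1% of all genes). In 5 of the 7 the 4 heart arrays spanned at least 1 log2 unit, as in 1.9% of all genes. The median difference over the 7 genes was -0.72, beside 0.01 over all genes, and it was -0.25 without KD replicate 2 and -1.24 without KD replicate 1. In a bulk sample, fewer atrial cells and less of these RNAs per atrial cell cannot be told apart.

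Among the secreted factors, Nppa read 13.24 and 13.04 in the WT hearts, against 13.00 and 11.69 in the KD hearts. The first KD heart was thus close to the WT hearts, at 0.91 of their mean level, and the second was at 0.37 of it, 2.73-fold below. The means were 13.14 ± 0.14 in WT, against 12.35 ± 0.93 in KD (SD, n = 2 each), a difference of -0.79. Bmp10 read 9.57 and 9.52 in WT, against 9.21 and 8.05 in KD. Here too the second KD heart was the low one, 2.81-fold below the WT mean, against 1.26-fold for the first. The difference of means was -0.91, between 8.63 ± 0.82 and 9.54 ± 0.04. Dkk3 read 9.33 and 9.07 in WT, against 8.91 and 8.64 in KD, a difference of -0.43 with the arrays more evenly spaced.

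The atrial myosin light chains followed the same order of arrays. Myl4 read 11.45 and 11.40 in the WT hearts, against 11.22 and 10.18 in the KD hearts, and Myl7 read 11.15 and 10.87 in WT, against 10.77 and 9.53 in KD. In both genes the first KD heart lay just under the lower WT heart, while the second lay 2.37-fold (Myl4) and 2.79-fold (Myl7) below the WT mean. The differences of means were -0.72 and -0.86. Their ventricular counterparts did not share that drop: Myl2 read 13.62 and 13.57 in WT, against 13.54 and 13.64 in KD, and Myl3 read 13.34 and 13.31 in WT, against 13.18 and 13.17 in KD.

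Sln, the inhibitor of the calcium pump, read 7.78 and 7.86 in WT hearts, against 7.54 and 6.79 in KD hearts, a difference of -0.66, with the second KD heart 2.05-fold below the WT mean. Pln, its ventricular counterpart, read 14.47 and 14.40 in WT, against 14.33 and 14.27 in KD. Nr2f2 was the exception among the 7 genes. It read 8.86 and 8.99 in WT, against 8.68 and 8.82 in KD, so the groups were parted by a small gap and the second KD heart was the higher one. Its difference of -0.18 was the smallest of the 7.

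**Figure D2:**
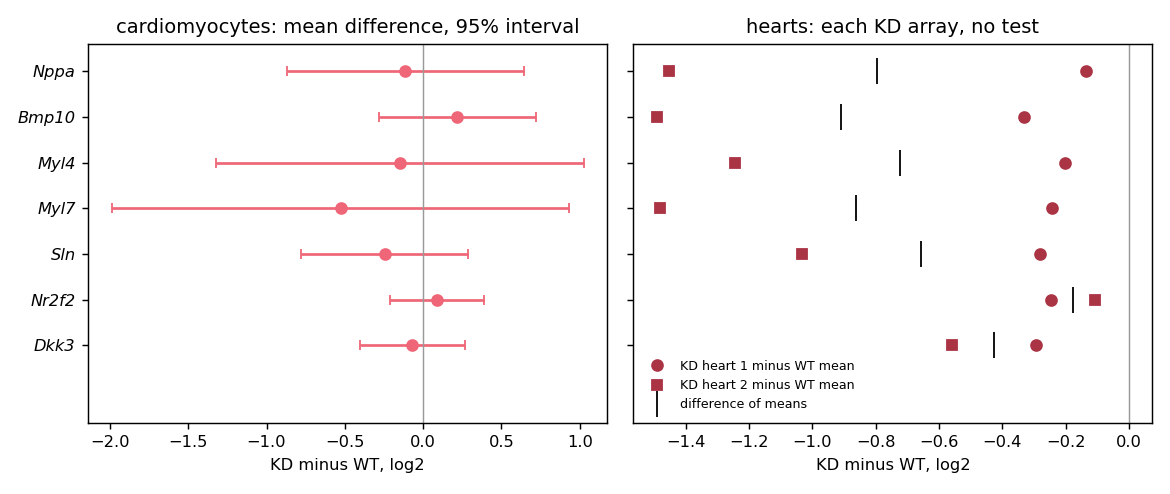
Left, KD minus WT difference (log2) of each atrial gene in cardiomyocytes, with limma's 95% confidence interval; right, each KD heart array minus the mean of the WT hearts, with the difference of means as a vertical mark. All intervals on the left span 0, and on the right KD heart replicate 2 lies beyond -1 for Nppa, Bmp10, Myl4, Myl7 and Sln while KD heart replicate 1 stays above -0.4 for all 7 genes.

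Beside these values, KD heart replicate 2 was the lowest heart array by over 0.5 in 124 genes (0.622%), among them 5 of the 7 atrial genes. Genes of the ventricles and of heart muscle in general stayed near the WT level in that array. The list of 7 ventricular genes (Myl2, Myl3, Irx4, Hey2, Myh7, Pln and Fhl2) averaged 11.36 there, against 11.34 and 11.39 in the WT hearts, against 11.19 in KD replicate 1. The list of 8 general cardiomyocyte genes averaged 12.92 there, against 13.03 and 12.93 in WT, against 12.78 in KD replicate 1. Of all genes 47.5% had a lower mean in KD hearts. Fibroblast genes (7 of 7 lower in KD, median -0.27) averaged 10.30 and 10.22 in WT, against 10.04 and 9.91 in KD. Adipocyte genes (5 of 5 lower, median -0.25) averaged 8.34 and 8.35 in WT, against 8.22 and 7.92 in KD. The red cell list had 2 measured genes, 0.61 and 0.71 above the WT mean in the KD arrays. The part of these lists in the atrial values was not tested.

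KD heart replicate 1 stood apart for another reason. Its 8 thymocyte genes averaged 9.98, against 6.48 to 6.76 in the other 3 heart arrays; Rag1, which recombines receptor genes in developing lymphocytes, read 11.68 there and 6.51 to 6.73 in the others. The thymocyte list of KD replicate 2, the array with the low atrial genes, was 0.15 above the WT mean. The atrial median without KD replicate 1 was larger in size, as given above. Other cell lists showed smaller departures in the KD hearts. Relative to the WT mean, smooth muscle genes averaged -0.25 and -0.09, endothelial genes -0.14 and -0.20, venous and lymphatic endothelial genes -0.17 and 0.08, epicardial and mesothelial genes -0.06 and -0.18, and macrophage genes -0.02 and 0.22 in KD replicates 1 and 2. Nodal genes stood at -0.13 and 0.14, genes of cardiac neurons at -0.14 and 0.11, and lung epithelial genes at -0.20 and -0.03. WT hearts 1 and 2 themselves stood at -0.18 and 0.18 for the lung list, about as far from their mean. For the nodal list and the neuron list they stood at -0.03 and 0.03.

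**Figure D3:**
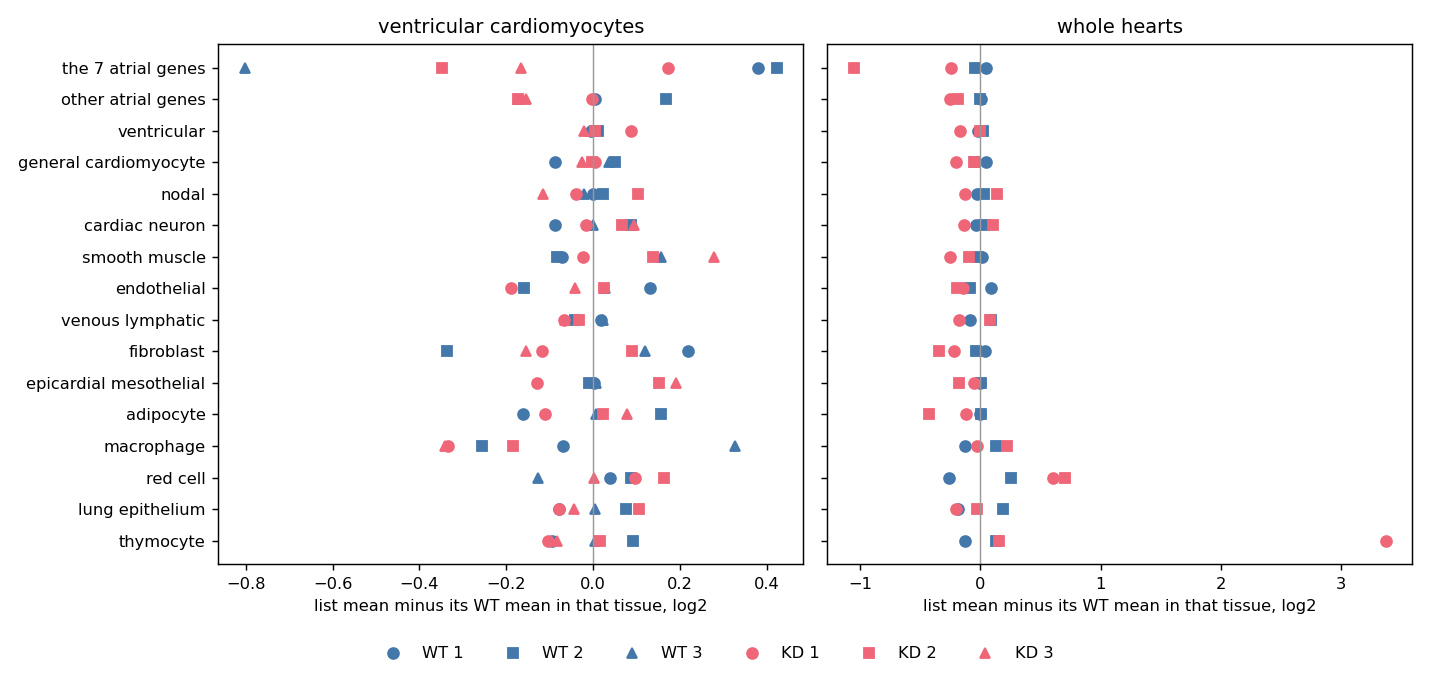
Mean of each marker list in each array minus its mean over the WT arrays of that tissue (log2), for cardiomyocytes (left) and hearts (right); colours give the genotype and symbols the replicate. The 7 atrial genes spread from -0.80 to 0.42 in cells and reach -1.05 in KD heart replicate 2, while the ventricular list stays between -0.17 and 0.09 in all 10 arrays; the thymocyte list of KD heart replicate 1 lies at 3.37.

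Other genes known from atrial muscle were less far apart between the hearts. Of 15 listed genes 14 were measured; 12 had a lower mean in KD, with a median of -0.26, and in 8 KD lay below WT with no overlap; of all genes 47.5% had a lower mean and 15.4% lay below with no overlap. The lowest were Mybphl, a myosin binding protein of atrial muscle, at -0.44 (8.68 and 8.78 in WT, 8.41 and 8.16 in KD), and Pam, an enzyme of peptide amidation found on atrial secretory granules, at -0.43. Hamp, which encodes hepcidin, was at -0.39 and the kinase gene Sbk2 at -0.38. Hamp was dim, at 6.72 and 6.92 in WT and 6.53 and 6.33 in KD, under the medians of these arrays. The list mean lay below WT by a like amount in both KD hearts, at -0.25 and -0.19, so this mean did not single out KD replicate 2. Its genes moved in opposite directions there. Relative to the WT mean, Mybphl stood at -0.32 and -0.57 in KD replicates 1 and 2, Pam at -0.27 and -0.60, Hamp at -0.29 and -0.49 and Fgf12 at -0.15 and -0.46. Against that, Tbx5 stood at -0.38 and 0.42 and Stard10 at -0.13 and 0.21. Stard10 and Tbx5, a transcription factor of the early heart, had slightly higher means in KD, at 0.04 and 0.02.

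The pattern was different in isolated ventricular cardiomyocytes. There the light chain genes Myl7 and Myl4 varied more between arrays than nearly all other genes, and the spread lay within the WT group. Myl7 read 9.38, 9.64 and 6.33 in the WT arrays, against 8.73, 7.35 and 7.70 in the KD arrays. Its highest array was 9.92-fold above its lowest, a range that only 3 of the 19938 genes exceeded. With Nppa, 3 of the 7 spanned at least 1 log2 unit over these arrays, as did 1.11% of all genes. Myl4 read 11.30, 11.48 and 8.73 in WT, against 10.72, 10.06 and 10.29 in KD, a 6.72-fold range, the 6th widest. Both genes put the 6 arrays in the same order: WT replicate 2 highest, then WT replicate 1, KD replicate 1, KD replicate 3, KD replicate 2, and WT replicate 3 lowest by a wide margin. The KD arrays lay between the WT arrays.

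Dkk3 and Sln spread over less but leaned the same way. Dkk3 read 6.05, 6.13 and 5.51 in WT, against 5.92, 5.80 and 5.75 in KD, with the same arrays highest and lowest. Sln read 6.42, 6.39 and 5.64 in WT, against 6.24, 6.04 and 5.43 in KD, with KD replicate 3 lowest. Nppa kept another order, with 10.86, 11.07 and 10.10 in WT, against 10.73, 9.85 and 11.10 in KD. Its highest and its lowest array were both KD arrays. Bmp10 read 4.27, 4.49 and 4.12 in WT, against 4.81, 4.29 and 4.42 in KD, near the floor of each array, and no detection calls were used here to say whether this is signal. Nr2f2 read 6.18, 5.58 and 5.78 in WT, against 5.85, 5.99 and 5.96 in KD, near the array medians.

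From the list of other atrial genes, Mybphl and Sbk3, a muscle kinase gene, shared the order of the light chains in the cardiomyocyte arrays nearly array by array. Mybphl read 7.38, 7.45 and 6.10 in WT, against 7.01, 6.76 and 6.45 in KD, and Sbk3 read 6.61, 6.54 and 5.45 in WT, against 6.16, 5.83 and 5.63 in KD. In both the WT arrays again held the highest and the lowest values, with WT replicate 3 lowest. Among 219 genes outside the 7 with a range of at least 1 over these 6 arrays, Mybphl was the gene most like the mean of the 7 (Pearson r 0.95 across 6 arrays), followed by Rab4a (0.94), which regulates endosome recycling, and Sbk3 (0.93). The mean was of unscaled values, so Myl7 (range 3.31) and Myl4 (2.75) weighed most in it. Nr2f2 (0.61), Dkk3 (0.62) and Bmp10 (0.69) weighed little. This ranking was chosen after seeing the values and is a description: the points share their arrays and their normalization. The ranges of the other 12 genes of the other atrial list ran from 0.29 (Pam) to 0.92 (Hamp). Hamp read 4.03 to 4.96, under the array medians. Sbk2 was at 0.60, Kcna5 at 0.56 and Kcnj5, a subunit of the acetylcholine-gated potassium channel, at 0.30. WT replicate 3 was lowest for 2 of these 12, Kcna5 and Fgf12.

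**Figure D4:**
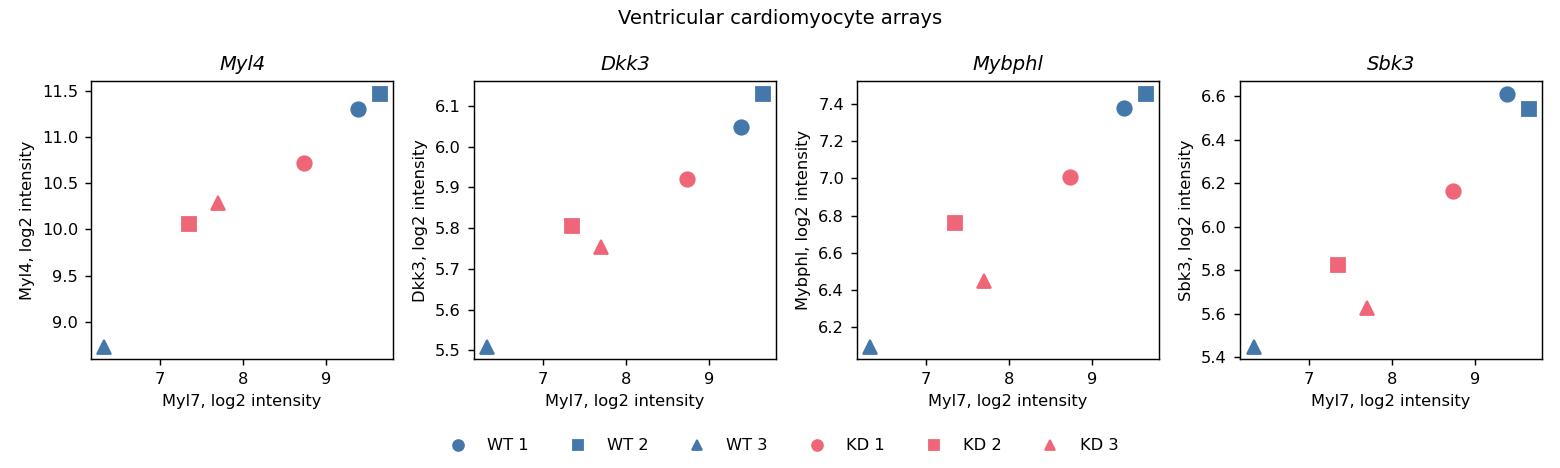
Log2 intensity of Myl4, Dkk3, Mybphl and Sbk3 (vertical axes) against Myl7 (horizontal axis) in the 6 ventricular cardiomyocyte arrays; colours give the genotype and symbols the replicate. In each panel WT replicate 3 is at the lower left and WT replicates 1 and 2 are at the upper right, with the 3 KD arrays between them.

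The markers of ventricular muscle spread less. The ventricular list averaged 10.99 to 11.10 over the 6 cardiomyocyte arrays, and its genes ranged over 0.04 (Pln) to 0.53 (Hey2). In 3 of its 7 genes WT replicate 3 was the lowest array, as for Myl4 and Myl7, by smaller amounts: Myl3 read 12.94 there and up to 13.19 elsewhere, Fhl2 12.07 and up to 12.26, and Myl2 13.21 and up to 13.27. The general cardiomyocyte list averaged 13.03 to 13.16. WT replicate 3, the lowest for Myl4, Myl7, Dkk3 and Bmp10, was the lowest array by over 0.5 in 34 genes (0.171%) and the highest by over 0.5 in 66. Macrophage genes (6 of 6 lower in KD, beside 50% of all genes, median -0.23) averaged 6.19 in that array and 5.52 to 5.79 in the other 5, so they too set it apart, in the opposite direction. Smooth muscle genes, relative to their WT mean, stood at -0.07, -0.08 and 0.16 in WT replicates 1 to 3 and at -0.02, 0.14 and 0.28 in KD replicates 1 to 3, so the arrays highest for Myl4 and Myl7 were the lowest here. Among them Acta2, the smooth muscle actin gene, read 10.14, 10.30 and 11.11 in WT, against 10.65, 10.93 and 11.24 in KD. Fibroblast genes averaged 6.67 to 7.23, endothelial genes 8.87 to 9.19, venous and lymphatic endothelial genes 7.02 to 7.12 and epicardial and mesothelial genes 5.85 to 6.17 over the 6 arrays. Thymocyte genes averaged 4.74 to 4.93, adipocyte genes 5.10 to 5.41, genes of cardiac neurons 5.25 to 5.43, nodal genes 5.54 to 5.76, lung epithelial genes 4.91 to 5.10 and the 2 red cell genes 5.76 to 6.05. The part of macrophage, smooth muscle or other cell content in the atrial values was not tested.

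In isolated cells the comparison of the 2 genotypes asked whether these genes differ in the ventricular cells of the knockdown mice. The fit takes its estimate of the spread from all 10 arrays, hearts included, so a fit on the 6 cardiomyocyte arrays alone is given beside it. None of the 7 genes passed: limma called 0 of 7 at an adjusted p under 0.05, and 0 of 19938 genes (0%). At an unadjusted p under 0.05 it called 0 of the 7 and 419 of all genes (2.1%). The fit on the cardiomyocyte arrays alone also called 0 of the 7 and 0 of all genes, with 0 of the 7 and 492 of all genes (2.47%) at an unadjusted p under 0.05. In no member were the KD arrays all above or all below the WT arrays, an order found in 6.21% of all genes (2.99% above and 3.21% below). The median difference over the 7 was -0.11, with 5 lower and 2 higher, while 50% of all genes were lower and their median was 0. Of the 14 other atrial genes 12 had a lower mean in KD cardiomyocytes too, with a median of -0.11. Limma called 0 of these 14 at an unadjusted p under 0.05.

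The widest intervals were those of the light chains. Myl7 averaged 8.45 ± 1.84 in WT cells and 7.93 ± 0.72 in KD cells (SD, n = 3 each). The difference was -0.53, with a 95% confidence interval of -1.99 to 0.93 and a limma adjusted p of 1. Myl4 averaged 10.50 ± 1.54 in WT cells and 10.35 ± 0.34 in KD cells, a difference of -0.15 with an interval of -1.32 to 1.02. Nppa differed by -0.11 (interval -0.87 to 0.64) and Sln by -0.25 (interval -0.78 to 0.29). Bmp10 differed by 0.22 (-0.28 to 0.72), Nr2f2 by 0.09 (-0.21 to 0.39) and Dkk3 by -0.07 (-0.40 to 0.26). With the cardiomyocyte arrays alone the interval of Bmp10 narrowed to -0.09 to 0.53 (SE 0.14 against 0.23), while those of Myl7 (-2.02 to 0.97) and Myl4 (-1.34 to 1.05) were nearly as before. A miss of the threshold does not show that the cells of both genotypes were alike.

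Single arrays decided the sign of several of these differences. Without WT replicate 3 the difference was -1.59 for Myl7, -1.04 for Myl4, -0.50 for Sln and -0.40 for Nppa, with a limma adjusted p of 1 each. Without WT replicate 2 it was 0.07 for Myl7, 0.34 for Myl4 and 0.08 for Nppa. Without KD replicate 2 Nppa was at 0.24. The median over the 7 genes was -0.40 without WT replicate 3, -0.20 without KD replicate 1, -0.03 without KD replicate 3, 0.00 without KD replicate 2, 0.01 without WT replicate 1 and 0.07 without WT replicate 2.

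**Figure D5:**
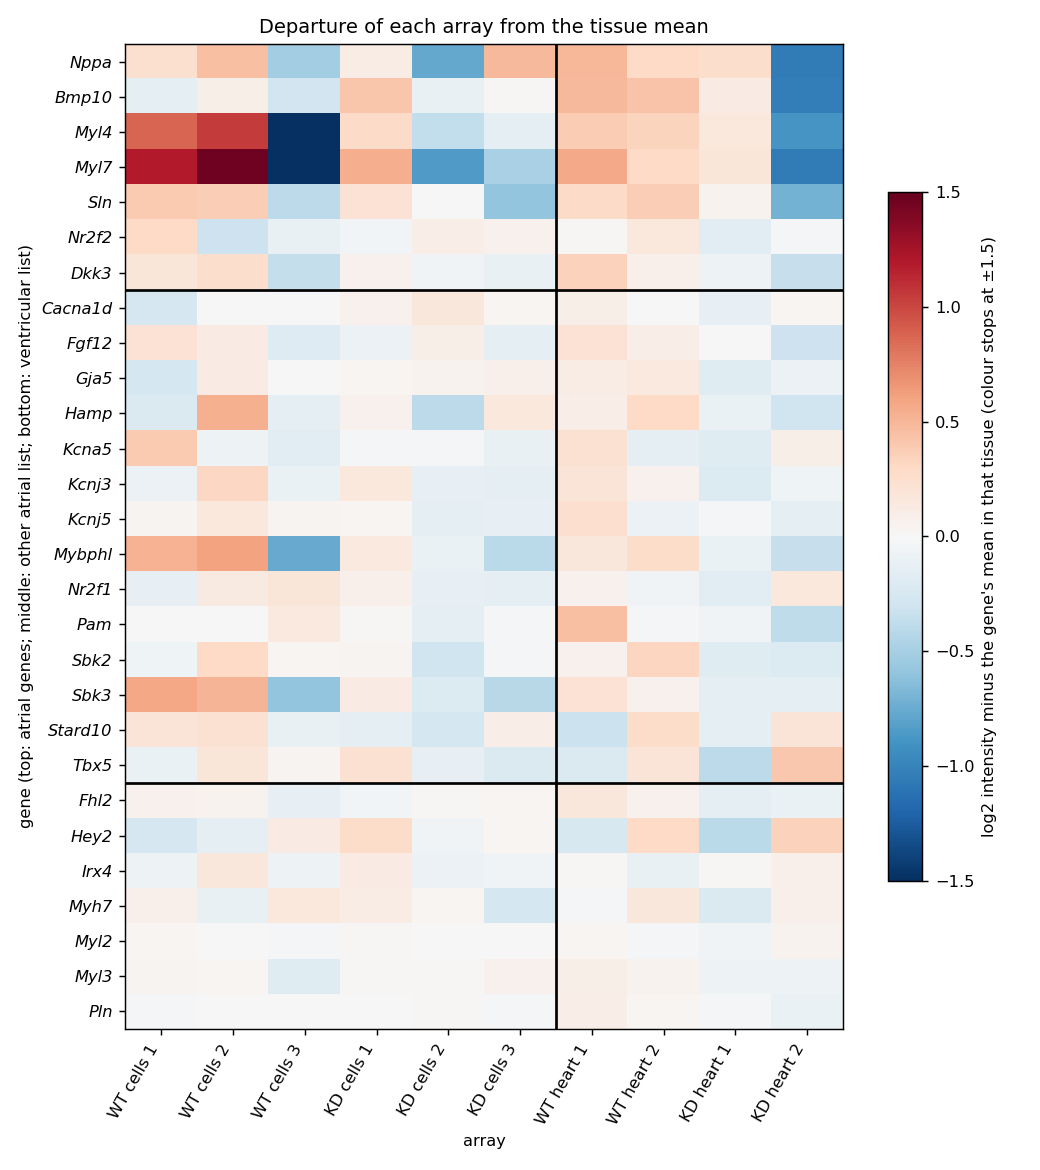
Departure of each array from the mean of the gene over the arrays of that tissue (log2, colour scale stopping at 1.5 on either side) for the 7 atrial genes, 14 other atrial genes and 7 ventricular genes in 6 cardiomyocyte and 4 heart arrays. The dark blue cells of Myl4 and Myl7 in WT cardiomyocyte replicate 3 and the blue column of KD heart replicate 2 stand out, and the ventricular rows are pale.

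Genes of the pathways and families of these factors were then read from fixed lists. At an adjusted p under 0.05 limma called 0 genes of any list in either tissue. It called 0 of 19938 in hearts (0%, with 982 or 4.93% at an unadjusted p under 0.05). Of the 8 genes of natriuretic peptide processing and reception, 6 had a lower mean in KD hearts (47.5% of all genes), with a median of -0.20. Nppb, the B-type natriuretic peptide gene, which lies next to Nppa and is also made by ventricular muscle, read 10.65 and 10.07 in WT hearts, against 10.04 and 9.08 in KD hearts, a difference of -0.80 close to that of Nppa. In cardiomyocytes Nppb read 11.31, 10.83 and 11.17 in WT, against 9.99, 11.04 and 11.22 in KD, a difference of -0.35 (SE 0.30) that rested on KD replicate 1. The clearance receptor gene Npr3 was at -0.43 in hearts, the receptor gene Npr2 at -0.37 and Corin, the protease that activates the Nppa product, at -0.26.

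The list of the Bmp10 pathway held the ligand gene Gdf2, receptor genes, Smad genes and Id genes. Of its 16 genes, 13 had a lower mean in KD hearts (47.5% of all genes), with a median of -0.09. In KD cardiomyocytes 9 had a lower mean (50% of all genes), with a median of -0.04. Other lists leaned the same way in KD hearts, with 8 of 8 general cardiomyocyte genes and 6 of 6 endothelial genes lower. The target gene Id2 was at -0.32 in hearts, where it read 9.0 and 9.06 in WT, against 9.05 and 8.37 in KD, so that KD replicate 2 alone was low. The receptor gene Bmpr1a was at -0.31 and the inhibitory Smad7 at -0.28 in hearts and 0.27 (SE 0.15) in cardiomyocytes. The receptor gene Acvrl1 stayed between 8.94 and 9.07 in all 4 heart arrays.

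Of 10 other myosin light chain and light chain kinase genes, 8 had a lower mean in KD hearts (47.5% of all genes), with a median of -0.08. Myl9 of smooth muscle was at -0.28 and the cardiac kinase gene Mylk3 at -0.27. In the list of the calcium pump and its regulators 8 of 9 genes were measured, with a median of -0.02 in hearts and -0.01 in cardiomyocytes. Its largest heart difference was in Atp2a3, a calcium pump of lymphoid and other non-muscle cells, at 0.41, which read 8.96 in KD replicate 1, the array with the thymocyte genes, and 8.20 to 8.38 in the other 3. Among 16 measured transcription factors of the heart chambers the median was -0.04 in hearts and 0.02 in cardiomyocytes. Nr2f6, a relative of Nr2f2, was at 0.22 (SE 0.12) in cardiomyocytes, and the ventricular factor Irx4 read 8.56 and 8.43 in WT hearts, against 8.56 and 8.62 in KD hearts. Among 11 genes of the Dickkopf family and its Wnt pathway the medians were -0.01 and -0.02, with Ctnnb1, which encodes beta-catenin, at -0.33 in hearts and Dkk4 at 0.28 (SE 0.13) in cardiomyocytes.

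Genes with the pattern most like the mean of the 7 were ranked over all 10 arrays, with each gene centred within its tissue. Of 374 genes outside the 7 with a range of at least 1 over the hearts, the 10 most alike, with small RNAs and gene models left out (the small RNA gene Snord14e stood at the 3rd rank, with r 0.67), were Zfp626, Gpd1, Cxcl13, Pttg1, Arntl, Cox15, Tfrc, Spop, Sprr2b and BC005537, with Pearson r from 0.58 to 0.69 across the 10 arrays. The likeness of these 10 lay mostly in the hearts, on which the range filter also rested. Their r was 0.87 (Spop) to 0.99 (Tfrc) over the 4 heart arrays. Over the 6 cardiomyocyte arrays it was 0.23 (BC005537) to 0.65 (Spop), with Tfrc at 0.27. Mybphl, the gene most alike in cardiomyocytes, had a heart range of 0.62 and was not ranked here. The mean was again of unscaled values. These are descriptions, since the arrays and their normalization are shared. Tfrc, the transferrin receptor gene, read 10.82 and 10.46 in WT hearts, against 10.30 and 9.32 in KD hearts. The members were chosen by their heart difference on these arrays, which by itself makes them alike in hearts. They also passed no filter on range, so their values cannot be set beside those of the outside genes. Against the mean of the other 6, the members stood at 0.93 for Myl4 and Dkk3, 0.91 for Myl7, 0.82 for Sln, 0.78 for Nppa and 0.68 for Bmp10, while Nr2f2 stood at 0.04. Nr2f2 thus kept apart from the other 6 genes in hearts and in isolated cells.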

How the data were processed

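The deposited values are log2 intensities of 35556 probe sets from 10 arrays; the authors used RMA and Partek, per the submitters' processing notes, which as used here name no version or setting. RMA compresses differences of dim probes and makes arrays treated together alike in distribution. Genes were named from the platform annotation: 21789 probe sets had 1 symbol, 1621 had several and 12146 had none listed. The brightest probe set of a gene was kept, which left 19938 genes. One model of 4 group means was fitted to the 10 arrays (R 4.3.3, limma 3.58.1, eBayes with an intensity trend, 6 residual and 6.81 prior degrees of freedom). Tests were two-sided, and p-values were adjusted by Benjamini-Hochberg across the 19938 genes, with a threshold of 0.05. A permutation of 3 against 3 arrays cannot give a p below 0.1. On simulated data 92.1% of 2-fold and 58.4% of 1.5-fold changes in cardiomyocytes were recovered, with 8.6 false calls per run of 19938 genes. The changed genes were drawn at random from all genes, and the noise was independent and normal. These rates therefore do not hold for genes with a wide spread between arrays, such as Myl7 (SE 0.68) and Myl4 (SE 0.54).

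The members, the 21 gene lists (168 of 176 entries measured) and the tests were chosen with earlier results of these data known. Named were the members, up to 4 genes of each pathway list and of the other atrial genes by p in cardiomyocytes and up to 4 by size in hearts, the 10 genes most like the members (small RNAs and gene models left out), and defining genes of cell type lists; Rab4a, Snord14e, Kcna5, Fgf12, Stard10, Tbx5, Acvrl1, Myl2 and the lists' other examples outside this rule were chosen after their values were seen. Alternatives were other normalization, centring, a filter on dim genes, other fits, removal of a loess trend (span 0.3), a replicate block, a threshold of 0.1 and leaving out each array.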

Additional observations from a re-analysis of the deposited data

How the results depend on the processing

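The number of arrays limits the precision. Over 8 other ways of processing, the median difference of the 7 genes in KD hearts moved only with those that change the values. It was -0.69 with quantile normalization, -0.75 with centring and -0.66 with the loess trend removed. The rest left it at -0.72, as they did not alter the values or the group means of these genes. With 1 array left out it lay between -1.24 and -0.25. In cardiomyocytes the median difference stayed between -0.12 and -0.08 over the other ways of processing, several of which likewise left it unchanged. With 1 array left out it lay between -0.40 and 0.068, turning sign without WT replicate 1 or 2 or KD replicate 2. Nppa in cardiomyocytes turned from -0.11 to 0.050 with array weights. With 1 array left out the cardiomyocyte differences ranged from -0.40 to 0.24 for Nppa, -1.04 to 0.34 for Myl4, -1.59 to 0.068 for Myl7, -0.26 to 0.048 for Dkk3 and -0.047 to 0.26 for Nr2f2; the other 2 genes kept their sign. WT cardiomyocytes minus WT hearts moved from -2.56 to -2.03 (quantile normalization) and -1.23 (centring), and from -3.02 to -2.17 with 1 WT array left out. No member was called in cardiomyocytes under any alternative, and 0 genes of all were. In hearts 1 gene passed with the replicate block, and 0 to 303 with 1 array left out (303 without KD heart replicate 2, where KD replicate 1, the array with the thymocyte genes, is the only KD heart and its spread is taken from the other groups). Replicate numbers were shared between genotypes. In cardiomyocytes same-numbered arrays correlated at 0.15, 0.13 and -0.05 in their departures from the group means, and arrays of different numbers at -0.19 to 0.07. In hearts the values were 0.23 and -0.23, equal in size because each group had 2 arrays. Whether the numbers paired the arrays cannot be told from these values. Both genotypes held the same replicate numbers, so the replicate block could not move the differences of means. It left the median differences at -0.11 in cardiomyocytes and -0.72 in hearts, and called 0 members in cardiomyocytes.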
